A study of Mus musculus with 15 samples.

Results

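Bins in the vomeronasal receptor gene clusters of the mouse genome are described here. A bin is a stretch of 2 kb, and the bins were drawn at random by the study. A bin was taken where any of its bases lay within 50 kb of a gene whose symbol begins with Vmn1r, Vmn2r, V1r or V2r, measured from the start to the end of the gene. This held for 829 of 98085 bins. They lie around 398 deposited transcript positions of 337 receptor symbols, 214 of them V1R and 123 V2R, on 12 chromosomes. Chromosome 7 held 438 of the bins, chromosome 17 held 121 and chromosome 6 held 103. Coordinates are those of mm9 unless another build is named.

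Vomeronasal receptors are G protein-coupled receptors of the sensory neurons of the vomeronasal organ, through which mice detect pheromones and other chemical signals. V1R genes have a single coding exon, and their receptors signal through Gnai2 in apical neurons. V2R genes have several exons and encode receptors with a long extracellular part, which signal through Gnao1 in basal neurons. The genes stand in tandem arrays, are kept silent outside the organ and include many recent duplicates and pseudogenes. H3K9me3 is the histone mark of constitutive heterochromatin and H3K27me3 that of Polycomb repression, whereas an antibody to all histone H3 (panH3) shows where nucleosomes are recovered at all.

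All libraries came from TT2 cells, a male mouse embryonic stem cell line of the strain C57BL/6 x CBA derived from the inner cell mass of a blastocyst, and the genotype of every group was wildtype. Native ChIP, in which chromatin is not crosslinked, was done with an antibody to H3K9me3 on 1000 (3 libraries, a, b and c), 10000, 100000 and 1000000 cells, to H3K27me3 on 1000, 10000 and 100000 cells, to H3K4me3 on 5000, 10000 and 100000 cells, and to panH3 on 1000 cells (2 libraries, a and b). Where no letter is given a group is 1 library, and 1 RNA library came from 1000 cells. Nothing in the labels says that replicates came from separate cultures, so their spread may be technical. The bin values are RPKM, reads per kilobase and per 1000000 reads, in 11 libraries whose depth, recovered from the steps of the values, was 13 to 45.5 M reads (M, 1000000). A typical bin rested on a median of 9 to 35 reads, and 3 reads, the most that a bin at 0 allows, are 0.0329 to 0.115 RPKM. The cells had the RNA of stem cells, with Pou5f1 at 81.4, Nanog at 53.6 and Zfp42 at 222 RPKM. Omp, the marker of mature vomeronasal and olfactory neurons, was at 0.19 RPKM. Of the other genes listed for vomeronasal neurons, Trpc2 was at 0.81, Gnao1 at 3.83 and Gnai2 at 29.4 RPKM. Of the fibroblast markers, Dcn and Col3a1 were listed at 0, Col1a2 was at 0.02, Col1a1 at 0.15 and Thy1 at 1.79 RPKM.

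The sequence at receptor gene starts is shown because it bears on where reads can be placed. RefSeq windows of 300 bases on GRCm38.p6, from 250 bases before to 50 bases after the start, matched 294 of 337 receptor symbols. Vmn1r155, whose transcript stands at 6 positions in the deposited gene table, has the window below at chr7:22657768-22658067 (+ strand), and that of Vmn1r107 is the same in every letter. Capitals mark CG dinucleotides here and in the next 3 windows. Vmn2r96, at chr17:18581477-18581776 (+ strand), belongs to the cluster with the highest mean H3K9me3 among those of at least 5 bins, and Vmn1r234, at chr17:21228576-21228875 (+ strand), had the highest H3K27me3 of any V1R start at 100000 cells. Vmn2r29, at chr7:7278240-7278539 (− strand), holds more CG dinucleotides than any other receptor window.
Vmn1r155: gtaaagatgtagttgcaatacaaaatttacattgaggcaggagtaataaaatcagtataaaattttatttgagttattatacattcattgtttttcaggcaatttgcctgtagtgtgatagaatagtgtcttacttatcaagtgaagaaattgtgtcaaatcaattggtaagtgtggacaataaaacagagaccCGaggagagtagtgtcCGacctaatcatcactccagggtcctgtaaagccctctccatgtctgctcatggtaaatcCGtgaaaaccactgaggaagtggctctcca
Vmn2r96: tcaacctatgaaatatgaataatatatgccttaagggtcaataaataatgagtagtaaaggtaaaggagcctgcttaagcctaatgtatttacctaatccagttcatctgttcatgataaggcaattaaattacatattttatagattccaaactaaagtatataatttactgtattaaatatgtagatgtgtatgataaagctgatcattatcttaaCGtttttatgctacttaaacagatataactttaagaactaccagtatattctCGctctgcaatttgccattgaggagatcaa
Vmn1r234: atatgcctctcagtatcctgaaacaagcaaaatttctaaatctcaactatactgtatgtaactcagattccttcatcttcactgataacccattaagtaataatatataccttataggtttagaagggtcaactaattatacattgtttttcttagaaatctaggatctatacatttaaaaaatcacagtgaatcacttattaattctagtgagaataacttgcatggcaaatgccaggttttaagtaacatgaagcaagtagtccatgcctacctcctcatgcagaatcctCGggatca
Vmn2r29: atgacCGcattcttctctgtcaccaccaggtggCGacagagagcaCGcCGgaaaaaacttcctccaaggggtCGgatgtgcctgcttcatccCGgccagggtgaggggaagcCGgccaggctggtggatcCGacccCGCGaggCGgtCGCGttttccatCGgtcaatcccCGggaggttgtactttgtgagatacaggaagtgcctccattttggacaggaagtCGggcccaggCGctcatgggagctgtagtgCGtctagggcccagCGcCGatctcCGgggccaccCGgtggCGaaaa

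Vmn1r155 has 3 CG dinucleotides, Vmn2r96 has 2, Vmn1r234 has 1 and Vmn2r29 has 23. The median over receptor windows was 1, against 7 over all 32851 promoter windows, and 76 receptor windows (25.8%) had none, against 5.43% of all windows. The window printed for Vmn2r29 was the only receptor window with 7 or more. Of the 24 windows of receptors whose transcript stands at 2 or more positions, 20 were identical to the window of another receptor, and of the 271 windows of receptors placed once, 15 were. The pair below, Vmn1r100 at chr7:20417692-20417991 (+ strand) and Vmn1r112 at chr7:20770935-20771234 (+ strand), shows a near-identical pair, with capitals at the 2 positions where the windows differ.
Vmn1r100: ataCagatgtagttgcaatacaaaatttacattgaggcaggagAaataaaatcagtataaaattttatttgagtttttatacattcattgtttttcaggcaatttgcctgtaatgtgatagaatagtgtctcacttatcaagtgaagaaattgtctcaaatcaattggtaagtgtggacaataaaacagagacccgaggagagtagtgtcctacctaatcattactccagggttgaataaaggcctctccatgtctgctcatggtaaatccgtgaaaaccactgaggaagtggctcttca
Vmn1r112: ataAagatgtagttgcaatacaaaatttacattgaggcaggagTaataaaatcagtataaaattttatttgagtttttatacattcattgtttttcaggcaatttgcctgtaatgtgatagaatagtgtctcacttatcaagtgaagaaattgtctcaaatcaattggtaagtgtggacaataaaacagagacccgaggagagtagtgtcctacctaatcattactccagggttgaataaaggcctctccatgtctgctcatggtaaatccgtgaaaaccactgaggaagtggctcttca

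The libraries fell into 2 sets at a few places, and receptor clusters hold one of them. On chromosome 7, 5 consecutive bins between positions 5630001 and 5766000, 4 of them receptor bins, were above 0 in H3K9me3 1000 b, 1000 c and 1000000 and in both panH3 libraries. They were at 0 in H3K9me3 1000 a, 10000 and 100000 and in all 3 H3K27me3 libraries. Over the 5 bins H3K9me3 averaged 0.962 RPKM in 1000 b, 1.05 in 1000 c and 0.902 at 1000000 cells, and panH3 averaged 0.360 RPKM in a and 0.302 in b. The bins on either side, starting at 5510001 and 5780001, were above 0 in all 11 libraries. The stretch reaches Vmn1r63 and Vmn1r187 and lies next to Vmn1r62 and Vmn1r186, V1R genes whose start sites were at 0 in the 3 H3K27me3 libraries and, for Vmn1r62 and Vmn1r63, in the 3 H3K4me3 libraries. Their neighbours Vmn1r61 and Vmn1r64 had 0.24 and 0.5 RPKM of H3K27me3 at 1000 cells. The same split, at 0 in the same 6 libraries and above 0 in the same 5, was seen in 107 bins of the genome and the reverse in 0. Bins near Vmn2r121 on chromosome X were not at 0 but followed the same sets. The bin starting at 121296001 had 2.72 and 2.21 RPKM of H3K9me3 in 1000 b and 1000 c and 1.69 at 1000000 cells, and 0.48, 0.49 and 0.57 RPKM in 1000 a, 10000 and 100000. What sets the libraries apart is not given in the labels and was not tested, so the main counts that use H3K9me3 1000 a are also given without it.

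**Figure D1:**
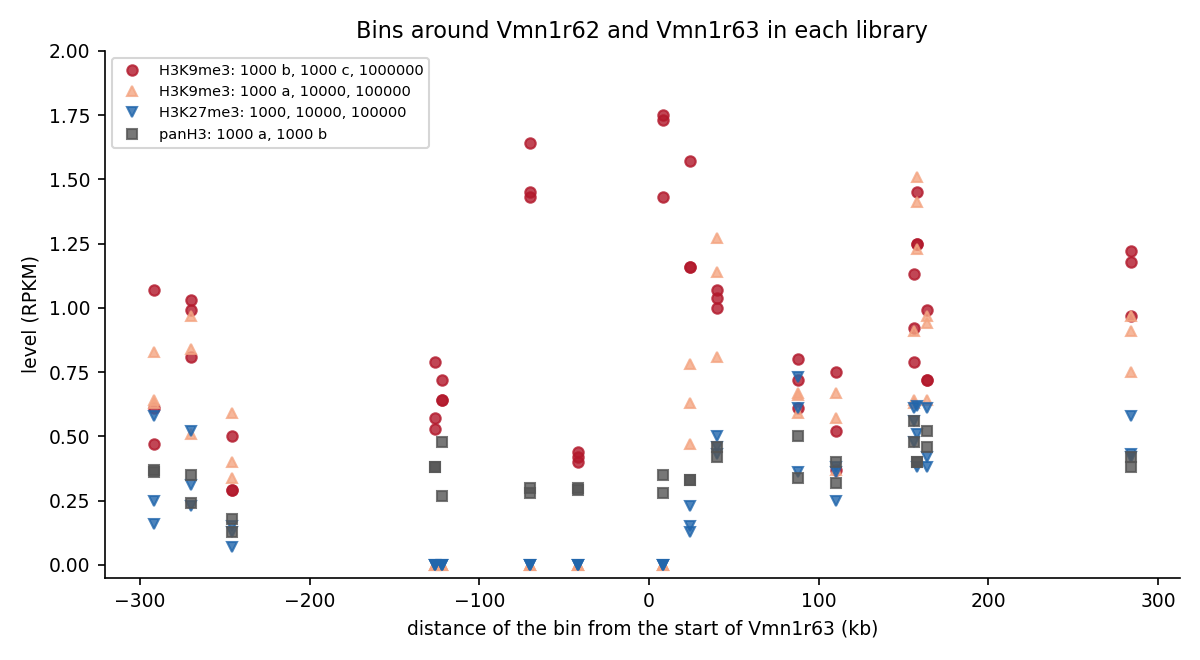
Level (RPKM) of each bin within 300 kb of the start of Vmn1r63 in every library, against the distance of the bin from that start in kb. Red circles are H3K9me3 1000 b, 1000 c and 1000000, light triangles H3K9me3 1000 a, 10000 and 100000, blue triangles the 3 H3K27me3 libraries and grey squares the panH3 libraries. In 5 neighbouring bins the light and blue triangles all lie at 0, whereas the red circles and grey squares do not.

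Receptor bins held more H3K9me3 on average than all other bins and less panH3. The mean level of H3K9me3 over the 829 bins was 0.511, 0.488 and 0.478 RPKM in libraries a, b and c at 1000 cells, 0.507 at 10000, 0.464 at 100000 and 0.429 at 1000000 cells. H3K27me3 averaged 0.323 RPKM at 1000 cells, 0.260 at 10000 and 0.280 at 100000, and panH3 averaged 0.309 and 0.308. All 6 H3K9me3 libraries were above both panH3 libraries, and the H3K27me3 libraries lay on either side of them. Over all other bins the 11 libraries lay between 0.395 and 0.415 RPKM. At 1000 cells H3K9me3 averaged 0.492 ± 0.017 RPKM (SD, n = 3) in receptor bins and panH3 0.308 ± 0.00068 RPKM (SD, n = 2), a ratio of 1.60, against 0.971 in all other bins. Without library a the H3K9me3 mean was 0.483 RPKM. With 3 libraries against 2, an exact test could not go below 0.10, and no p-value is given for these means.

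Other gene-poor and receptor-rich sequence had ratios between these. The ratio of H3K9me3 to panH3 at 1000 cells was 1.32 in 1228 bins within 50 kb of olfactory receptor genes, 1.26 in 22285 bins with no gene within 200 kb and 1.23 in 629 bins that lie 50 to 250 kb from a vomeronasal receptor gene. Olfactory receptor bins had a mean H3K9me3 level of 0.534 ± 0.013 RPKM (SD, n = 3), and a mean panH3 level of 0.404 ± 0.0013 RPKM (SD, n = 2). Over all 829 bins the vomeronasal means were below the olfactory ones with both antibodies. The 689 vomeronasal bins more than 50 kb from a transcript placed at several positions averaged 0.581 ± 0.020 RPKM of H3K9me3 (SD, n = 3), above the olfactory mean, and 0.366 ± 0.00019 RPKM of panH3 (SD, n = 2), below it. Of the vomeronasal bins 101 (12.2%) were at 0 in every library, against 0.733% of the olfactory ones and 4.49% of all other bins. The share was 15.2% in bins with no gene within 200 kb and 11.6% at 50 to 250 kb from a vomeronasal receptor gene.

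**Figure D2:**
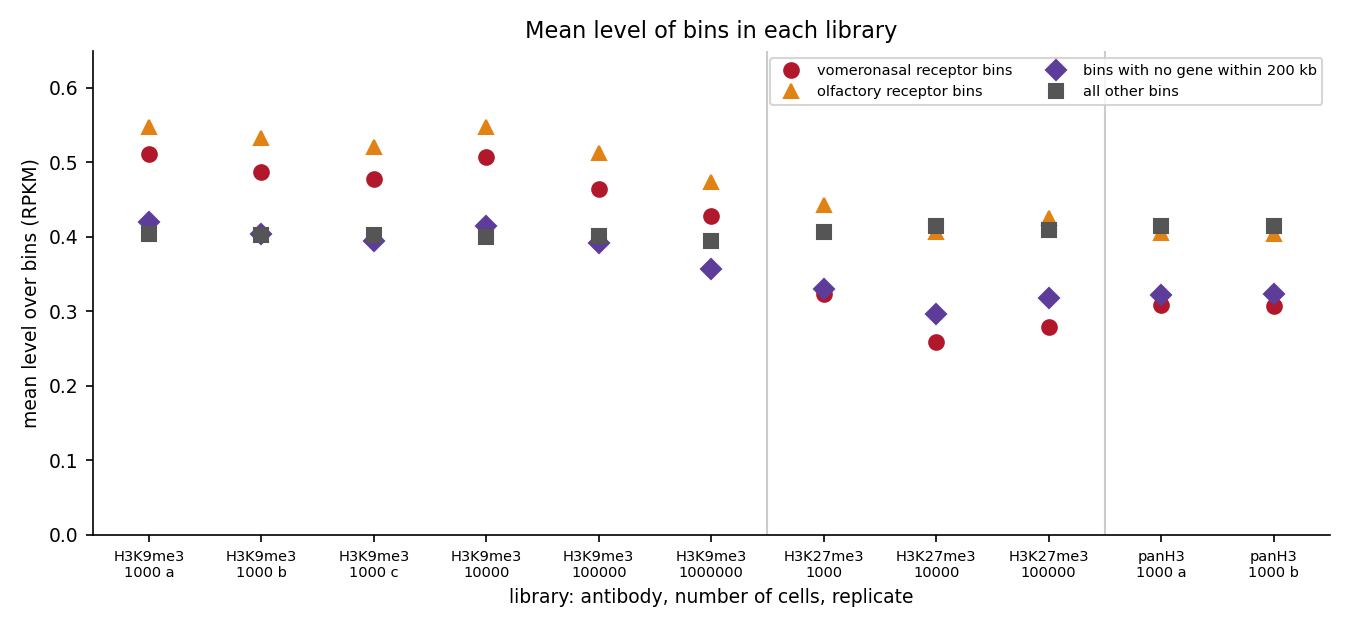
Mean level over bins (RPKM) in each of the 11 libraries, ordered by antibody and number of cells. Red circles are the 829 vomeronasal receptor bins, triangles olfactory receptor bins, diamonds bins with no gene within 200 kb and grey squares all other bins. The red circles lie at 0.429 to 0.511 RPKM in the H3K9me3 libraries and at 0.309 and 0.308 in the panH3 libraries, whereas the grey squares stay near 0.4 throughout.

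Comparing the mark with panH3 bin by bin asks where it exceeds the recovery of nucleosomes. Reads from any of these 5 libraries were found in 726 receptor bins, of which 287 were higher and 18 lower in H3K9me3 than in panH3 at 1000 cells (limma on log2(RPKM + 0.1), two-sided, Benjamini-Hochberg adjusted p under 0.05 over all bins). This is 39.5% higher and 2.48% lower, where 15.2% of all 93575 bins tested were called higher and 24.7% lower. Of tested bins with no gene within 200 kb 20.6% were higher and 4.13% lower, and of olfactory receptor bins 28.0% and 10.5%. At 50 to 250 kb from a vomeronasal receptor gene 28.1% were higher and 20.1% lower. The median log2 difference was 0.39 in receptor bins and -0.10 over all bins. Without H3K9me3 library a, 313 of 725 (43.2%) were higher and 29 (4%) lower, where 17.6% and 27.7% of all bins were. With each library centred on its median, which moves the median of all bins by 0.17 on the log2 scale, 356 receptor bins were higher and 12 lower. Calls over all bins then split into 21.7% higher and 19.8% lower.

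The highest H3K9me3 in a called bin was on chromosome 17 near Vmn2r96, a V2R. The bin chr17:18706001-18708000 had 2.48, 1.77 and 1.95 RPKM of H3K9me3 at 1000 cells, against 0.44 and 0.56 RPKM of panH3 (log2 difference 1.85 ± 0.17 (SE), limma adjusted p = 6.7e-09). A neighbouring bin, chr17:18702001-18704000, had 2.39, 1.60 and 1.93 RPKM, against 0.38 and 0.36 RPKM of panH3. H3K27me3 was 0.23 RPKM in the first and 0.58 in the neighbour at 1000 cells, 0.33 and 0.29 at 10000, and 0.10 and 0.18 at 100000. The bin chr6:57248001-57250000, near the V1R gene Vmn1r16, had 2.45, 1.67 and 1.53 RPKM of H3K9me3, against 0.23 and 0.47 RPKM of panH3. In none of these 3 bins did the H3K9me3 and panH3 libraries overlap.

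The largest rise over panH3 was near Vmn2r63 on chromosome 7, where panH3 was also low. The bin chr7:50142001-50144000 had 0.94, 0.77 and 0.74 RPKM of H3K9me3, against 0.08 and 0.07 RPKM of panH3 (log2 difference 2.38 ± 0.23, adjusted p = 1.68e-08). A bin near Vmn2r67, at chr7:92336001-92338000, was next with a log2 difference of 2.36. The bins near Vmn1r16 and Vmn2r96 at chr6:57248001 and chr17:18702001 followed with 2.16 and 2.12, and one near Vmn2r14, at chr5:109632001-109634000, with 2.08. H3K9me3 in the other libraries was 1.42 to 1.68 RPKM at 10000, 100000 and 1000000 cells near Vmn2r14 and 0.92 to 1.27 RPKM near Vmn2r67.

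**Figure D3:**
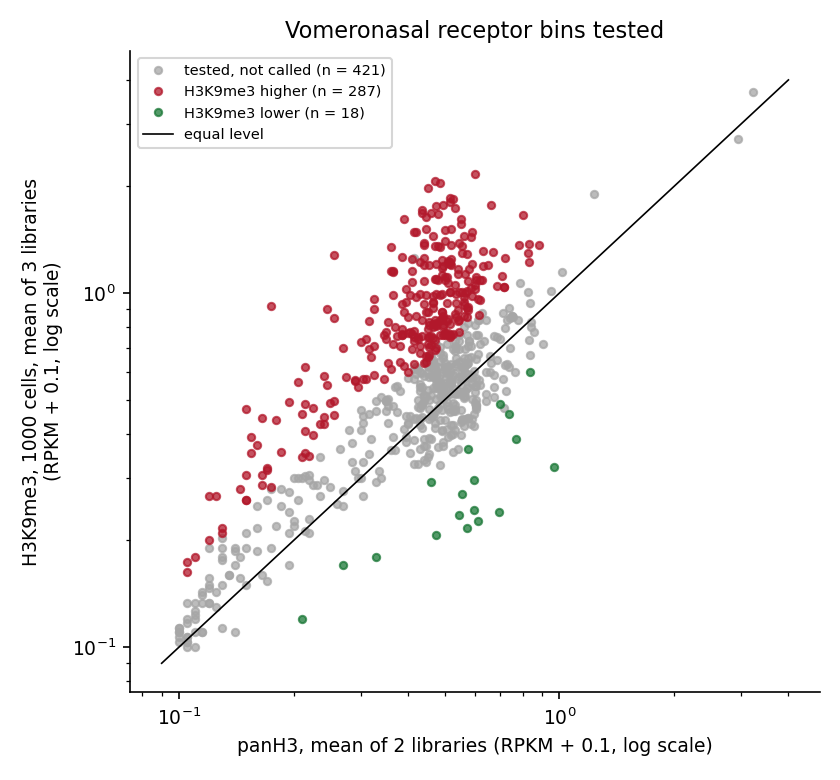
H3K9me3 at 1000 cells (mean of 3 libraries) against panH3 (mean of 2 libraries) in the 726 receptor bins tested, both as RPKM + 0.1 on log scales. Red points are the 287 bins called higher, green points the 18 called lower and grey points the rest, and the line marks equal levels. Red points lie above the line and green points below it, and the 2 points at the upper right are the bins near Vmn2r-ps14.

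A pair of neighbouring bins near Vmn2r-ps14, a V2R pseudogene on chromosome 4, were high with all 3 antibodies. The bins chr4:145026001-145028000 and chr4:145028001-145030000 had 2.48 to 3.85 RPKM of H3K9me3 at 1000 cells and 2.83 to 3.36 RPKM of panH3. Neither passed the test (log2 differences -0.12 and 0.20, adjusted p = 0.436 and 0.163), although the second was called higher after centring. H3K27me3 there was 2.26 and 2.23 RPKM at 1000 cells. Without these 2 bins the log2 ratio of the mean levels was 0.69, against 0.68 with them.

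Bins nearest to V1R genes and those nearest to V2R genes differed in the size of the ratio. Near V1R genes (374 bins) H3K9me3 at 1000 cells averaged 0.476 ± 0.009 RPKM and panH3 0.272 ± 0.004, and 142 of 306 bins tested (46.4%) were higher. Near V2R genes (455 bins) the means were 0.505 ± 0.024 and 0.338 ± 0.002 RPKM, and 145 of 420 (34.5%) were higher (SD, n = 3 and 2 libraries). In libraries a, b and c at 1000 cells the ratio of H3K9me3 to mean panH3 was 1.79, 1.74 and 1.73 near V1R genes and 1.57, 1.48 and 1.44 near V2R genes. Away from transcripts placed more than once, 134 of 270 bins were higher near V1R genes and 139 of 410 near V2R genes. Without library a the ratio of the means was 1.73 near V1R genes and 1.46 near V2R genes, and 150 of 305 and 163 of 420 bins were higher. The difference between the families was not tested across libraries, where 3 values against 3 would share the same panH3 libraries.

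Receptor genes were joined into loci where they lay less than 1 Mb apart, a distance chosen after the values were seen. Of 29 loci, 20 held at least 5 bins, and in 18 of these every H3K9me3 library at 1000 cells was above both panH3 libraries, and in 19 without library a. With the 50 kb windows alone, which give 95 clusters, this held in 54 of 68 clusters of at least 5 bins, and in 56 without library a. The reverse held in 2 and an overlap in 12, among them 3 clusters at 0 throughout. Other bins were not grouped in this way, so these counts have no background share and do not show a trait particular to receptor loci. Over olfactory receptor bins and over bins with no gene within 200 kb, each set as a whole, the antibodies also stood in this order in every library at 1000 cells.

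Vmn2r18 on chromosome 5, a V2R that stands alone, had the highest mean of the 20 loci, 0.945, 0.807 and 0.727 RPKM of H3K9me3, against 0.352 and 0.375 RPKM of panH3, and 5 of its 6 bins were higher. V1R loci on chromosomes 6, 13 and 7 showed the same order of the antibodies. Vmn1r40 to Vmn1r54 on chromosome 6 (15 bins, 10 higher) had 0.866, 0.795 and 0.772 RPKM of H3K9me3, against 0.367 and 0.395 RPKM of panH3. Vmn1r188 to Vmn1r223 on chromosome 13, an array of 36 V1R genes, had 17 of 36 tested bins higher and 0 lower, with a mean of 0.658 ± 0.016 RPKM of H3K9me3 (SD, n = 3) and 0.356 ± 0.0044 RPKM of panH3 (SD, n = 2). Vmn1r184 and Vmn1r185 on chromosome 7 had 7 of 8 bins higher. In these 3 loci the H3K9me3 and panH3 libraries did not overlap.

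The locus from Vmn2r90 to Vmn1r237 on chromosome 17 holds 21 V2R and 14 V1R genes, and 48 of its 99 bins were higher and 2 lower. Its cluster at Vmn2r96 had the highest mean of any cluster of at least 5 bins, 1.34, 1.09 and 1.08 RPKM of H3K9me3, against 0.406 and 0.460 RPKM of panH3. The cluster of the V1R genes Vmn1r234 to Vmn1r237 had both marks above panH3 as means over its bins, though not in the same bins throughout. H3K9me3 there was 1.09, 0.844 and 0.870 RPKM, and panH3 was 0.419 and 0.408 RPKM. H3K27me3 was 0.763 RPKM with 1000 cells, 0.615 with 10000 and 0.687 with 100000, above both panH3 libraries each time. Of its 10 bins 6 were higher and 1 lower in H3K9me3. The lower one, chr17:21408001-21410000, had 0.31, 0.10 and 0.18 RPKM of H3K9me3 at 1000 cells, against 0.46 and 0.53 RPKM of panH3. Its H3K27me3 was 0.81, 0.56 and 0.97 RPKM at 1000, 10000 and 100000 cells.

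Vmn2r1 to Vmn2r7 on chromosome 3, the family C receptors that are co-expressed with other V2Rs in basal neurons, varied along the locus. Around Vmn2r1 and Vmn2r2 H3K9me3 was 0.794, 0.746 and 0.718 RPKM, against 0.428 and 0.419 RPKM of panH3, and 4 of 8 bins were higher. Around Vmn2r4 to Vmn2r7 it was 0.379, 0.349 and 0.372 RPKM, against 0.358 and 0.336 RPKM of panH3, and 2 of 18 bins were higher. The libraries of both antibodies overlapped in that second cluster.

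Of the 20 loci, 2 did not have H3K9me3 above panH3 in every library. Vmn2r84 to Vmn2r87 on chromosome 10 (7 bins) had 0.416, 0.504 and 0.443 RPKM of H3K9me3, against 0.577 and 0.563 RPKM of panH3, with 0 bins higher and 2 lower. Vmn2r121 on chromosome X (7 bins) had 0.329, 0.911 and 0.816 RPKM, against 0.463 and 0.513 RPKM of panH3, with library a alone below. The cluster of Vmn1r63 and Vmn1r64 in the divided stretch of chromosome 7 had 0.5, 0.965 and 0.963 RPKM, against 0.382 and 0.338 RPKM of panH3, so that library a was the lowest there too.

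**Figure D4:**
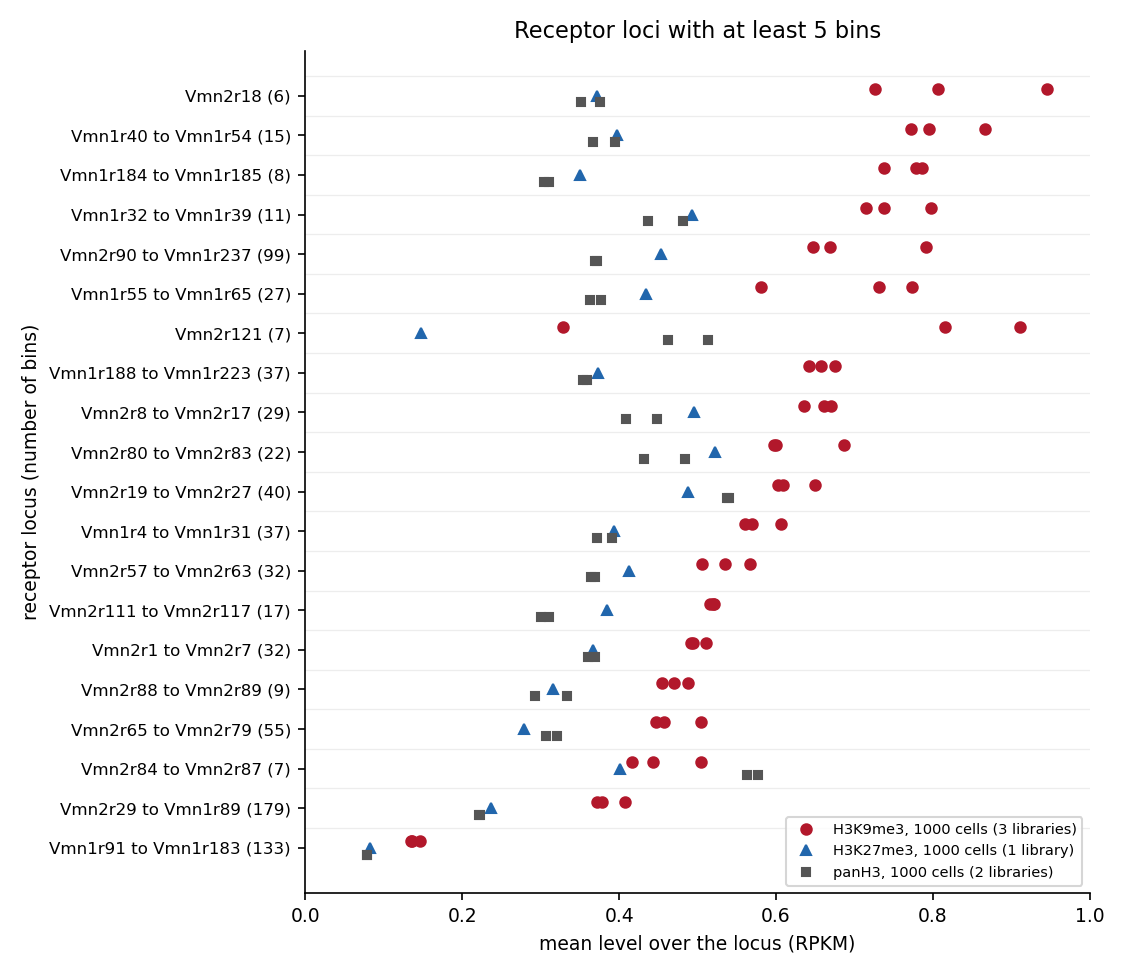
Mean level (RPKM) of the 20 receptor loci with at least 5 bins, labelled by their first and last gene with the number of bins, and ordered by mean H3K9me3. Red circles are the 3 H3K9me3 libraries at 1000 cells, blue triangles the H3K27me3 library at 1000 cells and grey squares the 2 panH3 libraries. In 18 loci every red circle lies to the right of both grey squares, and the exceptions are Vmn2r84 to Vmn2r87 and Vmn2r121.

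Duplicated arrays on chromosome 7 had few reads from any antibody. Of 339 receptor transcript IDs, 30 stand at 2 or more positions in the deposited genes, up to 6. The 140 bins within 50 kb of such a transcript averaged 0.057 ± 0.003 RPKM of H3K9me3 at 1000 cells (SD, n = 3) and 0.026 ± 0.003 RPKM of panH3 (SD, n = 2), and 93 of them (66.4%) were at 0 in all 11 libraries. Of the other 689 receptor bins 8 (1.16%) were at 0 throughout. Locus Vmn1r91 to Vmn1r183 held 64 bins at 0 of 133, all near a transcript placed more than once, and locus Vmn2r29 to Vmn1r89 held 29 of 179, again all near one. The transcripts of Vmn1r155 and Vmn1r107, whose start windows are identical, are among those placed 6 times. How multiply placed reads were counted is not given in these sources, and its part in the low levels was not tested. Away from these transcripts 273 of 680 bins (40.1%) were higher and 16 lower, and the log2 ratio of the mean levels was 0.67, against 0.68 with the arrays.

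Calls were more frequent between receptor genes than on them, a difference that was not itself tested. Most bins that touch a receptor gene lay on V2R genes, which are longer, and position and family were not separated. The 179 bins touching a receptor gene had 0.479, 0.437 and 0.433 RPKM of H3K9me3, against 0.343 and 0.357 RPKM of panH3, and 36 of 162 tested (22.2%) were higher. The 627 bins touching no gene had 0.528, 0.509 and 0.498 RPKM, against 0.298 and 0.293 RPKM of panH3, and 249 of 545 (45.7%) were higher. Without library a 42 of 162 bins touching a receptor gene (25.9%) and 269 of 544 touching no gene (49.4%) were higher. In the 48 bins within 1 kb of a receptor start the 2 antibodies gave 0.426, 0.388 and 0.402 against 0.364 and 0.384 RPKM. Of 46 tested, 5 (10.9%) were higher and 1 (2.17%) lower, where 15.2% and 24.7% of all bins were. Their median log2 difference was 0.05, against -0.10 over all bins. By distance the ratio of means was 1.28 on receptor genes, 1.58 up to 10 kb away, 2.08 at 10 to 20 kb, 1.58 at 20 to 35 kb and 1.72 at 35 to 50 kb.

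The edge of the window was no boundary in the values. At 50 to 100 kb the ratio was 1.53, with 70 of 188 bins (37.2%) higher and 19 lower, and at 100 to 250 kb it was 1.09, with 86 of 368 (23.4%) higher and 93 (25.3%) lower. The 3 bins just inside 50 kb had mean H3K9me3 of 0.0700, 0.383 and 0.643 RPKM at 1000 cells, and the 3 just outside had 0.360, 0 and 0.403 RPKM.

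**Figure D5:**
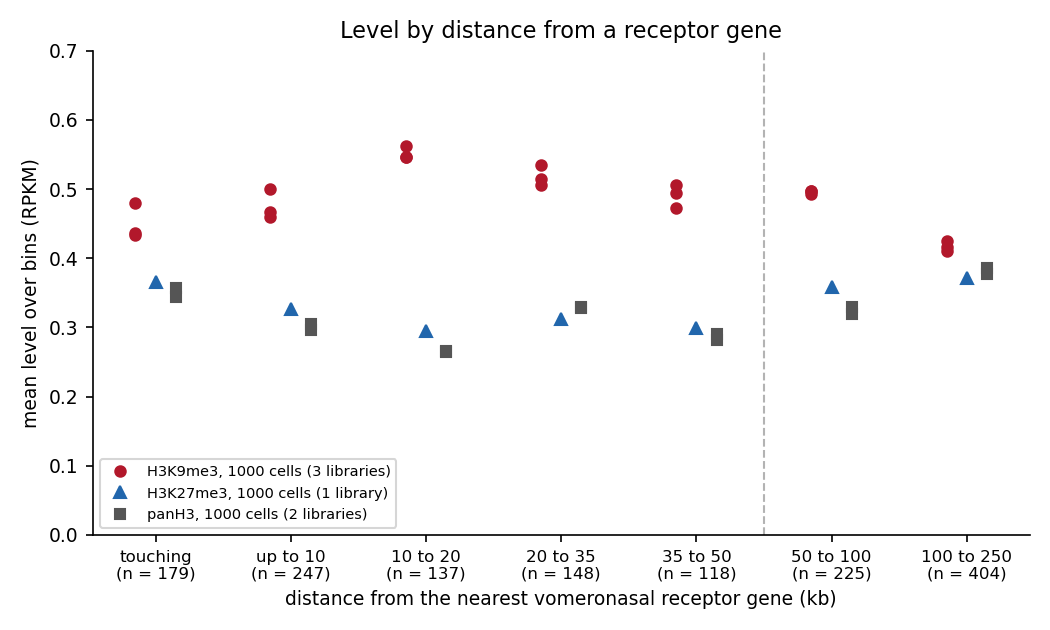
Mean level (RPKM) by distance from the nearest vomeronasal receptor gene in kb, with the number of bins in each band and a dashed line at the 50 kb limit. Red circles are the 3 H3K9me3 libraries at 1000 cells, blue triangles H3K27me3 at 1000 cells and grey squares the 2 panH3 libraries. H3K9me3 and panH3 are farthest apart at 10 to 20 kb and nearest at 100 to 250 kb.

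Receptor genes touched by at least 2 bins called alike were the V2R genes Vmn2r24, Vmn2r97, Vmn2r79 and Vmn2r29 and the V1R gene Vmn1r90, with 2 bins higher and 0 lower each. Over Vmn2r24 H3K9me3 was 1.38, 1.08 and 1.18 RPKM, against 0.6 and 0.705 RPKM of panH3. Over Vmn2r97 it was 0.997, 0.873 and 0.867 RPKM, against 0.330 and 0.310 RPKM of panH3.

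Of the 18 bins lower in H3K9me3 than in panH3, 8 lay on genes of other families, and of the 20 tested bins that touch such a gene, 2 were higher and 8 lower (24.7% of all bins were lower). The lowest was chr1:184058001-184060000 on Srp9, a subunit of the signal recognition particle, 27313 bases from Vmn1r1. It had 0.20, 0.29 and 0.18 RPKM of H3K9me3, against 0.84 and 0.89 RPKM of panH3 (log2 difference -1.59 ± 0.23, adjusted p = 3.59e-06). Bins on Zscan18 and Mzf1, zinc finger genes, fell by 1.53 and 1.45 on the log2 scale, and one on Pot1b, a telomere-binding protein gene, fell by 1.42. The fifth, chr7:93442001-93444000 near Vmn2r76, touches no gene and fell by 1.39. RNA was 16.5 RPKM for Srp9, 6.55 for Pot1b, 2.49 for Zscan18 and 0.79 for Mzf1. The 2 bins that were higher both lie on Nlrp4b, an oocyte gene whose RNA was listed at 0. Without H3K9me3 a the lower count was 29 (4%), where 27.7% of all bins were lower, against 24.7% in the main fit.

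The fit of H3K9me3 on the number of cells called no receptor bin, which does not show that levels were the same at every number of cells. Of 726 bins fitted over 6 libraries, 0 rose and 0 fell with log10 of the cell number at the adjusted threshold, where 0% of all 93569 bins rose and 0.00107% fell. Before adjustment, a p under 0.05 was found for 6 rising and 32 falling (4.41%) receptor bins, where 5.53% of all bins had one rising and 2% falling. With voom on recovered reads 1 receptor bin rose and 4 fell at the adjusted threshold. The share of all bins called in that fit is not given here, so these counts cannot be read against it. The median slope was -0.04 log2 units per log10 unit of cells in receptor bins and 0.00 over all bins, and 503 of 726 slopes (69.3%) were below 0. The share of slopes below 0 was 49.7% over all bins, 65.8% in olfactory receptor bins and 66.0% in bins with no gene within 200 kb. With the library set as a term, chosen after the split was seen, 7 receptor bins (0.964%) had a rising and 43 (5.92%) a falling slope at a p under 0.05 before adjustment, where 6.16% and 2.79% of all bins had. After adjustment 0 receptor bins rose and 0 fell, and 2 and 1 of all bins did.

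Few receptor bins had H3K27me3 far above panH3, and many had it far below H3K9me3. These comparisons rest on 1 H3K27me3 library per number of cells and have no replicate check, they share the panH3 libraries, and panH3 was measured at 1000 cells only. A bin counts as past the fold where log2(RPKM + 0.1) differs by at least 1. Of 728 receptor bins above 0 in any library, 13 were higher and 29 lower than panH3 at 1000 cells, 1.79% and 3.98%, where 2.49% and 9.22% of all bins were. At 10000 cells 9 (1.24%) were higher and 76 lower (5.13% and 15.4% of all bins), and at 100000 cells 11 (1.51%) and 62 (4.25% and 14.6%). Of bins with no gene within 200 kb 0.979%, 1.26% and 1.44% were higher than panH3 at 1000, 10000 and 100000 cells. The shares lower there were 3.11%, 7.53% and 4.71%. In olfactory receptor bins 3.04%, 3.94% and 3.53% were higher. Against H3K9me3 at 1000 cells 6 were higher and 161 lower, 22.1%, where 8.02% and 7.26% of all bins were. Set against libraries b and c alone, 8 were higher and 155 lower (8.41% and 7.46% of all bins). Libraries b and c belong to the other library set than the H3K27me3 libraries, so mark and set cannot be told apart in that comparison. Against H3K9me3 at 10000 cells 8 were higher and 276 (37.9%) lower (13.4% and 12.5% of all bins), and at 100000 cells 11 and 215 (29.5%) (8.13% and 10.4%). Of bins with no gene within 200 kb 11.2%, 19.6% and 13.9% were lower than H3K9me3 at 1000, 10000 and 100000 cells. Of olfactory receptor bins 12.8%, 22.2% and 18.5% were lower. The median log2 difference of H3K27me3 and H3K9me3 was -0.41 at 1000, -0.71 at 10000 and -0.57 at 100000 cells in receptor bins, against 0.10, 0.03 and 0.00 in all other bins.

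Only 2 receptor bins of 728 were past the fold above panH3 in all 3 H3K27me3 libraries, 0.275%, where 1.41% of all bins were, and they are named here after their values were seen. In 15 (2.06%) all 3 libraries were past the fold below panH3, where 5.36% of all bins were. All H3K27me3 libraries belong to one library set and both panH3 libraries to the other, and in 9 of the 15 bins every library of the panH3 set was above every library of the H3K27me3 set, H3K9me3 included. The 9 include the 4 receptor bins of the divided stretch and the bin at position 121296001 of chromosome X. Leaving out all bins divided in that way, a choice made after the values were seen, 6 of 717 receptor bins (0.837%) and 5.24% of all bins remained below in all 3. The bin chr17:21404001-21406000 lies 4173 bases from Vmn1r235, in the cluster whose means were above panH3 for both marks. It had 1.5 RPKM of H3K27me3 at 1000 cells, 1.14 at 10000 and 1.47 at 100000, against 0.45 and 0.34 RPKM of panH3. H3K9me3 in that bin was 0.57, 0.40 and 0.35 RPKM at 1000 cells and was not called (limma adjusted p = 0.736). The bin chr7:15208001-15210000 touches the start of Vmn1r90 and had 0.96, 0.75 and 1.02 RPKM, against 0.18 and 0.30 RPKM of panH3. Another bin, chr4:3158001-3160000 near Vmn1r3, had the second highest mean H3K27me3 of the receptor bins, with 1.07, 2.29 and 2.36 RPKM against 0.98 and 0.85 RPKM of panH3, so that it stood above panH3 at 10000 and 100000 cells and near it at 1000.

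Few receptor gene starts reached 1 RPKM of H3K27me3 or H3K4me3. The median H3K27me3 within 1 kb of the start of the 398 receptor transcripts was 0.29 RPKM at 1000 cells, 0.21 at 10000 and 0.25 at 100000, and over all 28373 transcripts 0.29, 0.26 and 0.25. The 309 receptor transcripts of genes placed once had medians of 0.35, 0.28 and 0.33 RPKM, whereas 72, 72 and 57 of the 89 placed more than once were at 0. A level of 1 RPKM or more was reached by 0.251% of receptor transcripts at 1000 cells and 0.503% at 100000, and by 4.70% and 8.71% of all. The highest at 100000 cells were Vmn2r-ps14 with 0.86, 1.24 and 1.31 RPKM at 1000, 10000 and 100000 cells, Vmn1r234 with 1.05, 0.74 and 1.09, Vmn1r231 with 0.47, 0.51 and 0.98, Vmn2r90 with 0.53, 0.49 and 0.97 and Vmn1r233 with 0.56, 0.65 and 0.91. Of these 5 genes, 4 lie in the locus on chromosome 17. H3K4me3, the mark of active starts, had a median of 0.12 RPKM over 351 receptor windows at 100000 cells, against 1.08 RPKM over all 74866 windows. Of all windows 51.7% reached 1 RPKM at 100000 cells, and of the receptor windows 2 (0.570%) did. Both belong to Vmn1r90, with 2.69, 11.25 and 3.91 RPKM in one and 3.23, 13.13 and 2.95 RPKM in the other at 5000, 10000 and 100000 cells. Next were Vmn1r85 with 0.78 RPKM and Vmn1r53 and V1rd19 with 0.60 RPKM each at 100000 cells. The libraries at 5000 and 10000 cells hold 1.86 and 1.07 M reads, so that 1 read is 0.539 and 0.938 RPKM there. In them 31 (8.83%) and 7 (1.99%) receptor windows reached 1 RPKM, where 58.7% and 52.0% of all windows did.

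RNA of receptor genes was listed at 0 for 348 of 398 transcripts (87.4%), against 20.4% of all transcripts. Of all transcripts 51.6% reached 1 RPKM, and of the receptor transcripts 3 (0.754%) did. These were Vmn1r90 at 4.2 RPKM, Vmn2r29 at 1.46 and Vmn2r-ps14 at 1.15, followed by Vmn2r53 at 0.88 and Vmn2r79 at 0.36. Among V1R transcripts 259 of 267 were at 0, and among V2R transcripts, whose gene models are longer, 89 of 131. H3K27me3 within 1 kb of the start of Vmn1r90 was 0.41, 0.28 and 0.14 RPKM at 1000, 10000 and 100000 cells, below the levels of the bin there. H3K9me3 in that bin was 0.46, 0.42 and 0.35 RPKM, against 0.18 and 0.30 RPKM of panH3 (limma adjusted p = 0.0541). Its deposited transcript spans 61.9 kb and its exons 3919 bases. The CG-rich window printed for Vmn2r29 was matched by symbol, and another RefSeq window of the gene, at chr7:7247279-7247578 (− strand), has 0 CG dinucleotides. The RNA is that of 1 of its 2 deposited transcripts, at chr7:7165707-7231000, and the other, at chr7:7184038-7200039, had 0.04 RPKM. The 2 windows lie as far apart as the starts of these transcripts, which places the CG-rich window at the start of the one with the RNA. The H3K4me3 window of the gene, placed at the start of the other transcript, had 0.12 RPKM at 100000 cells and 0 at 5000 and 10000. With 1 RNA library these levels have no replicate check, and in bulk RNA fewer cells with a transcript and less of it per cell cannot be told apart.

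Little RNA was also found for most other genes of the vomeronasal system, taken from a list of signalling genes, coreceptors, other receptors and ligands. Of 6 signalling genes 2 had RNA of at least 1 RPKM, Gnai2 at 29.4 and Gnao1 at 3.83, G protein subunits that many cells use. Trpc2, the channel of the transduction cascade, had 0.81 RPKM. Of 9 coreceptor genes of the H2-M10 type 0 reached 1 RPKM and 6 were at 0, and of 20 Mup genes, which encode urinary protein ligands, 19 were at 0. The Mup genes held 15 tested bins, of which 8 were higher in H3K9me3 than in panH3 and 0 lower, where 15.2% and 24.7% of all bins were. Their means were 0.349, 0.406 and 0.418 RPKM of H3K9me3, against 0.245 and 0.240 RPKM of panH3. The higher bins lay on Mup2 (5 of 8 tested), a gene listed 6 times, Mup15 (2 of 3), listed 2 times, and Mup19 (1 of 1). Of 3 tested bins on Esp genes, another ligand family, 0 were higher and 0 lower. Receptor starts had a median of 0.25 RPKM of H3K27me3 at 100000 cells, and 0.33 RPKM for transcripts placed once. The median was 0.68 RPKM at the starts of the 9 coreceptor genes and 0.25 RPKM over all transcripts.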

How the data were processed

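Bin, start-site and gene tables of TT2 stem cell ChIP and RNA libraries were used as deposited. The authors deposited RPKM values, per the file headers, 1 column per library with no pooling; the panH3 columns name no unit and were taken as RPKM from their steps and means. BWA and mm9 are named in the submitters' processing notes, with SAMtools for RNA; filters and the handling of duplicates and multiply mapped reads are not given in these sources. Deposited lengths of genes and exons served only to describe genes, and 2 further columns of per-sample values were not used.

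Depth came from the RPKM step of 1 read; intervals and limits cover counting error only. The 3 H3K9me3 libraries at 1000 cells were set against both panH3 libraries by limma 3.58.1 in R 4.3.3 on log2(RPKM + 0.1), with robust moderation and an intensity trend, in bins above 0 in at least 1 library compared, and fitted against log10 cells over 6 libraries. The tests were tested on simulated data. Other groups are 1 library and carry no test.

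Receptor bins, gene lists and comparison sets were chosen with earlier results of these data known. Bins named are the 5 highest in H3K9me3, the 5 largest rises and falls called and the 3 highest in H3K27me3 and panH3; genes named are the 5 highest per measure and those touched by 2 or more bins called alike. Alternatives were another pseudocount, filter, scaling, weighting, window or left-out library. Promoter windows are RefSeq's on GRCm38.p6. Regulator genes of the neuronal lineage are not reported here.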

Additional observations from a re-analysis of the deposited data

How the results depend on the processing

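Most counts of receptor bins higher in H3K9me3 than in panH3 were within 1.5 times of 287: pseudocounts, filters, centring, voom and a 100 kb window kept them there, and a fit with the replicate letter as a block gave 282 higher and 16 lower, although the letters do not pair the libraries (deviations of a and b correlated at -0.00955 between the antibodies). Narrower windows gave 36 (0 kb) and 190 (20 kb) higher, with fewer bins tested. Leaving out 1 library gave 202 to 313 higher and 8 to 29 lower; windows of 0, 20 and 100 kb gave 1, 6 and 37 lower, against 18. The log2 ratio of the means was 0.68, 0.65 to 0.70 with 1 library left out, 0.34 for medians over bins, 0.36 on receptor genes alone and 0.89 after dividing each library by its median. Slopes gave 1 rising and 4 falling receptor bins under voom, for which no share of all bins is given. In every other setting they gave 0, and 0 to 0 with 1 library left out. H3K9me3 above panH3 in every library held in 31 of 39 clusters at 20 kb and in 18 of 20 joined loci, again with no background share.

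Counts of bins past the fold in H3K27me3 depend on the pseudocount by construction, and 1 in place of 0.1 left, in the order 1000, 10000 and 100000 cells, 0, 0 and 0 higher and 0, 1 and 1 lower than panH3, and 0, 0 and 0 higher and 7, 21 and 15 lower than H3K9me3. After division by the median 48, 32 and 38 were higher than panH3 and 10, 17 and 25 higher than H3K9me3. That division applies to every bin of the genome, and the medians were 0.43 RPKM in panH3 and 0.36 to 0.38 RPKM in H3K27me3. The alternative counts in this paragraph have no share of all bins beside them, so they do not describe receptor bins in particular. On receptor genes alone 4, 3 and 4 were higher and 4, 22 and 10 lower than panH3, and 2, 2 and 4 higher and 19, 52 and 28 lower than H3K9me3. Among the 13 bins named for H3K9me3, 1 call changed in any setting, the bin near Vmn2r-ps14 after centring. The causes of these shifts were not tested. Depth limits single bins: 1 read is 0.011 to 0.0384 RPKM.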
